A study of Mus musculus with 12 samples.

Results

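The cold response of inguinal fat from AKO mice was read from 6 of the 12 RNA-seq libraries of the series, 3 labelled AKO_8C and 3 labelled AKO_30C. Every gene at 1 FPKM or more in at least 3 of these 6 libraries was taken, where FPKM gives sequenced fragments corrected for transcript length and for the size of the library. That rule kept 12809 of the 24344 genes in the table, and 12808 of them were tested. Total RNA came from inguinal white adipose tissue, which lies under the skin of the groin, in C57BL/6J mice given as 10 weeks old, with 3 mice in each group. All mice had lived at room temperature for 4 weeks and at 30 °C for 6 weeks. The AKO_8C mice were then held at 8 °C for 3 days, while the AKO_30C mice stayed at 30 °C for those 3 days. Both AKO groups carry the genotype label IRE1(alpha)-/-, and the series title names Ern1 f/f and Ern1 f/f AKO fat. The promoter that drives the deletion is not given in the sources used here. The other 6 libraries, WT_8C and WT_30C, have the genotype label WT and the same housing, and they are used below only to ask where the AKO response differed.

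White fat stores triglyceride, and in the cold, sympathetic nerves release noradrenaline onto its adipocytes. The signal passes through beta-adrenergic receptors and cyclic AMP to lipolysis and to a gene programme in which some adipocytes become beige: they fill with mitochondria and make UCP1, a protein of the inner mitochondrial membrane that lets protons return without making ATP and so releases heat. IRE1, encoded by Ern1, is a kinase and ribonuclease of the endoplasmic reticulum that senses unfolded proteins, splices the mRNA of Xbp1 and can also cut other transcripts.

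Ern1, the targeted gene (chromosome 11, 106394650 to 106487852, minus strand, GRCm38), was at 6.83, 6.92 and 7.37 FPKM in AKO_8C, against 4.50, 4.24 and 3.45 FPKM in AKO_30C. It was higher in the cold by 0.67 on the log2(FPKM + 1) scale (SE 0.12, adjusted p = 0.0028), and the groups did not overlap. WT fat had 4.53, 5.16 and 5.20 FPKM in WT_8C and 2.53, 3.32 and 2.97 FPKM in WT_30C, so the libraries labelled AKO did not have less Ern1 than WT, warm or cold. A gene-level FPKM cannot show a deleted exon, and AKO is used below as a label. Xbp1, the factor whose mRNA IRE1 splices (chromosome 11, 5520659 to 5525893, plus strand, GRCm38), was at 111, 64.5 and 145 FPKM in AKO_8C, against 122, 137 and 81.6 FPKM in AKO_30C. The groups overlapped, the log2 difference of -0.13 had a 95% interval of -0.81 to 0.56 (adjusted p = 0.74), and its sign turned to 0.19 without AKO_8C replicate 2 and to 0.02 without AKO_30C replicate 2. Spliced and unspliced Xbp1 cannot be told apart in these values.

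Nearly every second gene differed between the temperatures. Of the 12808 genes tested with limma, 6196 (48.4%) passed an adjusted p of 0.05, 3383 higher (26.4%) and 2813 lower (22.0%) in AKO_8C, and these shares are the background against which each list below is to be read. In the counts of list members below, a gene that rose or was higher, or fell or was lower, is one that passed this threshold in that direction. Among the called genes, 1592 (12.4% of those tested) had an absolute log2 difference of at least 1, of which 1096 were higher and 496 lower, and 193 were higher and 47 lower by at least 2. The median log2 difference over all genes was 0.01. In 7590 genes (59.3%) the 3 libraries of one temperature did not overlap those of the other. FPKM summed to 710408 to 743185 per library in AKO_8C, against 594203 to 610606 in AKO_30C. The higher sums moved with the cold, and when every library was scaled to the same sum the median over all genes shifted to -0.22, 2159 genes were called higher and 4921 lower, and the share called higher dropped to 30.5% of the calls, against 54.6% with the authors' scaling. Upper quartile scaling gave 43.8%. A first principal component with 78.72% of the variance separated the 3 AKO_8C from the 3 AKO_30C libraries. All log2 differences below are of group means of log2(FPKM + 1), AKO_8C minus AKO_30C, which understates the change of genes near 1 FPKM, and all adjusted p-values are limma's over all genes tested, unless stated otherwise. In pieces of whole tissue, fewer cells of a type and less RNA per cell cannot be told apart.

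Genes known from thermogenic fat led the response. Ucp1 (chromosome 8, 83290352 to 83298452, plus strand, GRCm38) was at 2459, 3412 and 3574 FPKM in AKO_8C, against 38.1, 6.40 and 4.20 FPKM in AKO_30C, a log2 difference of 8.08 (SE 0.65, adjusted p = 6.6e-05). The lowest cold library therefore stood far above the highest warm one, and AKO_30C replicate 1 stood above the rest of its own group. Elovl3, an elongase of very long chain fatty acids that marks cold-exposed brown fat, was at 189, 311 and 211 FPKM in AKO_8C, against 0.139, 0.192 and 0.0991 FPKM in AKO_30C (log2 difference 7.67, SE 0.18, adjusted p = 1.0e-06). Cyp2b10, a cytochrome P450 whose reads could be shared with close family members, was at 20.6, 79.5 and 105 FPKM in AKO_8C, against 0.0352, 0.0326 and 0.134 FPKM in AKO_30C (5.74, SE 0.51). Here the cold libraries differed among themselves, with replicate 1 the lowest.

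Genes of lipid handling and hormones were among the other large increases. Gyk, glycerol kinase, which lets an adipocyte reuse the glycerol freed by lipolysis, was at 106, 122 and 124 FPKM in AKO_8C, against 3.84, 1.70 and 1.62 FPKM in AKO_30C (5.19, SE 0.23). Fabp3, a fatty acid carrier of muscle and brown fat, was at 2093, 2871 and 2557 FPKM in AKO_8C, against 153, 48.8 and 62.8 FPKM in AKO_30C (4.98, SE 0.37). Acot11, a thioesterase that splits fatty acyl-CoA, was at 49.4, 71.2 and 44.5 FPKM in AKO_8C, against 4.83, 2.17 and 2.28 FPKM in AKO_30C (3.81, SE 0.26). In these lipid genes AKO_30C replicate 1 was again the highest of its group, and no library of one temperature reached the other. Of hormone-related genes, Fgf21, a hormone of metabolic stress, was at 35, 44.0 and 17.9 FPKM in AKO_8C and was listed at 0, 0 and 0.077 FPKM in AKO_30C (4.93, SE 0.28). Dio2, the deiodinase that turns thyroxine into active T3, was at 46.0, 47.1 and 45.3 FPKM in AKO_8C, against 0.849, 0.599 and 0.274 FPKM in AKO_30C (4.92, SE 0.15). The 3 cold libraries agreed closely on Dio2, whereas Fgf21 in replicate 3 was below that of the other cold libraries. Phospho1, a phosphatase of phosphocholine and phosphoethanolamine, was higher by 4.35, Kng2, a kininogen, by 3.90, Pla2g2e, a secreted phospholipase, by 3.95, and Gys2, the liver-type glycogen synthase, by 3.87. Slc25a34, a carrier of the mitochondrial inner membrane, was higher by 4.80 and Hpdl, a mitochondrial dioxygenase-like protein, by 3.87. Fam131c was at 16.1, 26.9 and 25.3 FPKM in AKO_8C and was listed at 0 in the 3 AKO_30C libraries, so no fold is given.

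**Figure D1:**
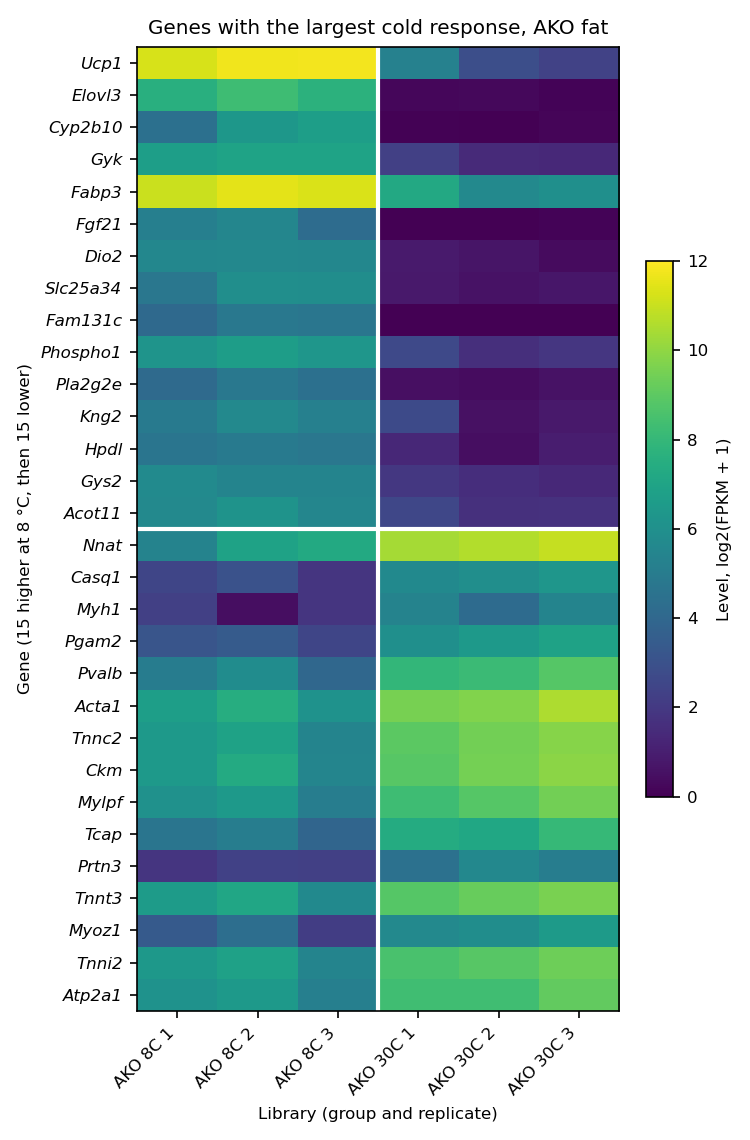
Level of the 15 called genes with the largest increase (upper block) and the 15 with the largest decrease (lower block) in each library, as log2(FPKM + 1), with the 3 AKO_8C libraries in the left columns and the 3 AKO_30C libraries in the right columns. Ucp1 and Fabp3 are bright in all 3 AKO_8C libraries, and the lower block is led by Nnat and skeletal muscle genes.

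In plain FPKM the largest gains were in abundant transcripts of fat and mitochondria. Fabp4, the main fatty acid carrier of adipocytes, was at 39743, 38126 and 38024 FPKM in AKO_8C, against 17971, 18303 and 18306 FPKM in AKO_30C. Cox8b, a subunit of cytochrome c oxidase found in muscle and brown fat, was at 4396, 4723 and 4658 FPKM in AKO_8C, against 757, 485 and 408 FPKM in AKO_30C. Gpd1, which makes glycerol 3-phosphate, was at 2939, 3131 and 2427 FPKM in AKO_8C, against 603, 432 and 411 FPKM in AKO_30C. The remaining members of this list of 8 were Ucp1, Fabp3, Aldoa, a glycolytic aldolase, Atp5b, the catalytic beta subunit of ATP synthase, and Cox6a1, another oxidase subunit. The log2 difference was 1.09 for Fabp4, 3.11 for Cox8b and 2.57 for Gpd1, with no overlap of the groups for any of the 8. With no filter on low values the Fabp4 call was lost (adjusted p = 0.11).

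Of 30 listed thermogenic and beige marker genes 28 were tested, 25 rose and 1 fell, and their median log2 difference was 3.01. Cidea, a lipid droplet protein of brown adipocytes, was at 1253, 1652 and 1845 FPKM in AKO_8C, against 391, 159 and 103 FPKM in AKO_30C (3.07, SE 0.42, adjusted p = 0.00073). Otop1, a proton channel, was higher by 3.22, Letmd1, a mitochondrial protein of brown adipocytes, by 2.95, and Kcnk3, a potassium channel, by 2.58. Ntrk3, a neurotrophin receptor, was the member that fell, at 8.87, 6.29 and 6.93 FPKM in AKO_8C, against 39.2, 16.3 and 13.0 FPKM in AKO_30C (-1.36, SE 0.35, adjusted p = 0.014). Tbx1, a transcription factor used as a beige marker, was at 5.16, 4.62 and 6.47 FPKM in AKO_8C, against 4.35, 4.43 and 3.98 FPKM in AKO_30C, and did not pass the test (adjusted p = 0.13). The list did not move evenly across animals. AKO_30C replicate 1 was the highest of its group for 23 of the 28 genes, and AKO_8C replicate 1 was the lowest of its group for 21 of them. The summed FPKM of the 30 listed genes was 14460, 18150 and 17930 in AKO_8C, against 2175, 1202 and 1050 in AKO_30C.

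Among transcription regulators of beige fat, coactivators and nuclear receptors of mitochondrial genes were higher. Of 30 listed, 28 were tested, 14 rose and 1 fell (median 0.48). Ppargc1a, the coactivator that drives mitochondrial biogenesis, was at 11.8, 12.7 and 9.61 FPKM in AKO_8C, against 2.25, 1.10 and 1.30 FPKM in AKO_30C (2.29, SE 0.19, adjusted p = 7.0e-05). Its relative Ppargc1b was higher by 1.98, and the ratio of Ppargc1b to Ppargc1a was 1.98, 2.33 and 2.41 in AKO_8C, against 4.78, 3.52 and 3.16 in AKO_30C. Perm1, a muscle regulator that acts with these coactivators, was at 21.4, 26.5 and 26.3 FPKM in AKO_8C, against 2.49, 2.38 and 2.67 FPKM in AKO_30C (2.87, SE 0.12). Esrra, the nuclear receptor ERR alpha, was higher by 1.82, Esrrg by 1.41, Ppara by 1.44, and Pparg, the master regulator of adipocytes, by 0.80. Irf4, which works with PGC-1 alpha in brown fat, was at 99.4, 16.3 and 111 FPKM in AKO_8C, against 10.6, 16.1 and 11.1 FPKM in AKO_30C (2.11, SE 0.63, adjusted p = 0.025), and replicate 2 of the cold group lay just above the warm range. The call of Irf4 was lost when any library other than AKO_8C replicate 2 was left out (adjusted p of 0.053 to 0.079), with no filter on low values (0.057) and with the replicate block (0.053). Prdm16, which holds cells in the brown and beige lineage, was at 2.48, 2.83 and 1.96 FPKM in AKO_8C, against 1.96, 1.42 and 2.93 FPKM in AKO_30C. The groups overlapped, and the difference of 0.16 had a 95% interval of -0.29 to 0.62 (adjusted p = 0.52), turning to -0.02 under equal sum scaling and to -0.0012 without AKO_30C replicate 2. Nrf1, nuclear respiratory factor 1, fell by 0.30 (adjusted p = 0.045), a call lost without any library other than AKO_8C replicate 2 (adjusted p of 0.09 to 0.13), with no filter (0.061) and with the replicate block (0.065).

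The adrenergic and cyclic AMP pathway changed at its receptors and downstream of them. Of 27 listed genes 25 were tested, 15 rose and 3 fell (median 0.70). Adrb3, the main beta-adrenergic receptor of mouse adipocytes, was at 119, 92.6 and 105 FPKM in AKO_8C, against 190.1, 220.3 and 156 FPKM in AKO_30C, and fell by 0.82 (SE 0.15, adjusted p = 0.0027). Adra1a, an alpha 1 receptor, was at 13.2, 15 and 14.5 FPKM in AKO_8C, against 4.02, 1.75 and 3.59 FPKM in AKO_30C, and rose by 1.93. Adrb1 was at 4.83, 7.63 and 3.60 FPKM in AKO_8C, against 2.64, 2.96 and 2.71 FPKM in AKO_30C, and rose by 0.70 (adjusted p = 0.027), a call lost with no filter (adjusted p = 0.058), under upper quartile and equal sum scaling (0.052 and 0.092) and without AKO_8C replicate 1 or any one AKO_30C library (0.052 to 0.072). Thus the most abundant of these receptors was lower and the scarcer ones were higher. Among the enzymes that make cyclic AMP, Adcy3 was at 53.6, 78.4 and 68.3 FPKM in AKO_8C, against 12.2, 10.4 and 9.10 FPKM in AKO_30C (2.54, SE 0.16), while Adcy5 fell by 0.77. Gnas, which encodes the stimulatory G protein, was higher by 1.49, and Prkar2b, the regulatory subunit of protein kinase A in fat, by 1.63. Crtc2, a coactivator of CREB, fell by 0.40, a call lost without AKO_8C replicate 1 or 2 or AKO_30C replicate 3 (adjusted p of 0.057 to 0.066). Of 8 tested genes of thyroid hormone action (10 listed) 4 rose and 0 fell. Thrsp, a thyroid hormone target that promotes lipogenesis, was at 4151, 2440.0 and 2413 FPKM in AKO_8C, against 1411, 1062 and 1112 FPKM in AKO_30C (1.29, SE 0.22).

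Dio2 links the cyclic AMP signal to thyroid hormone in brown fat. Its promoter window holds the palindromic cyclic AMP response element TGACGTCA, the sequence bound by CREB, at positions -95 to -88 from the annotated start. The stretch is shown because Dio2 was the only one of the 20 thermogenic genes with a window that held these letters. The letters were searched on both strands from 250 bases before to 50 bases after each RefSeq start, and 588 of 32851 windows (1.79%) held them. Only 71.4% of the tested thermogenic genes had a window, so no share is read from the list. The line gives chr12:90739090-90739169 of GRCm38.p6, minus strand, from RefSeq, with the element in capitals.
Dio2: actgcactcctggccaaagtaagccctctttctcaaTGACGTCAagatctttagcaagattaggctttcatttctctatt
A match of letters describes the sequence and is not a measured binding site.

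Transcripts of the respiratory chain rose almost as a block. Of 81 subunits of complexes I to IV, cytochrome c and ATP synthase 76 rose and 2 fell, with a median of 1.49. They made up 11.2%, 12% and 11.9% of the summed FPKM in AKO_8C, against 5.73%, 4.66% and 4.50% in AKO_30C, so the shares of the groups did not overlap. All 36 complex I subunits rose (median 1.48). The complex I changes ran between 0.52 for Ndufa7 and 2.43 for Ndufb6, which was at 922, 1018 and 1026 FPKM in AKO_8C, against 229, 172 and 154 FPKM in AKO_30C. All 14 genes of complexes II and III with cytochrome c rose (median 1.80), led by Cycs, the soluble electron carrier cytochrome c, at 357, 360.1 and 429.8 FPKM in AKO_8C, against 76.3, 37.8 and 43.6 FPKM in AKO_30C (2.90, SE 0.24). For cytochrome c oxidase, 12 of 15 subunits rose and 1 fell (median 1.39), and for ATP synthase 14 of 16 rose and 1 fell (median 1.22). The gene that fell there was Atpif1, an inhibitor of ATP synthase, at 11.4, 10.6 and 10.2 FPKM in AKO_8C, against 21.7, 19.5 and 20.6 FPKM in AKO_30C (-0.88, SE 0.10). AKO_30C replicate 1 was the highest of its group for 36 of 36 complex I subunits, as it was for most thermogenic markers.

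Within cytochrome c oxidase the Cox7a1 and Cox8b isoforms, used by heart, muscle and brown fat, stood higher relative to their widely expressed partners. The ratio of Cox7a1 to Cox7a2 was 3.66, 4.66 and 4.28 in AKO_8C, against 1.25, 0.798 and 0.910 in AKO_30C. Cox8b over Cox8a was 1.81, 1.78 and 1.61 in AKO_8C, against 0.581, 0.402 and 0.327 in AKO_30C. Cox7a1 rose by 3.46 and Cox7a2 by 1.35, so both partners of the pair were higher and the tissue-specific one by more. Cox6a2, the isoform of heart and skeletal muscle, moved the other way, at 13.4, 9.77 and 8.41 FPKM in AKO_8C, against 54.9, 49.2 and 103 FPKM in AKO_30C (-2.55, SE 0.28). Skeletal muscle transcripts also fell in these libraries, as described below, and their part in the fall of Cox6a2 was not tested. The same kind of shift was seen for the carnitine palmitoyltransferases that admit long-chain fatty acids to mitochondria, with Cpt1b over Cpt1a at 10.1, 14.1 and 12.9 in AKO_8C, against 3.36, 1.17 and 1.19 in AKO_30C.

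**Figure D2:**
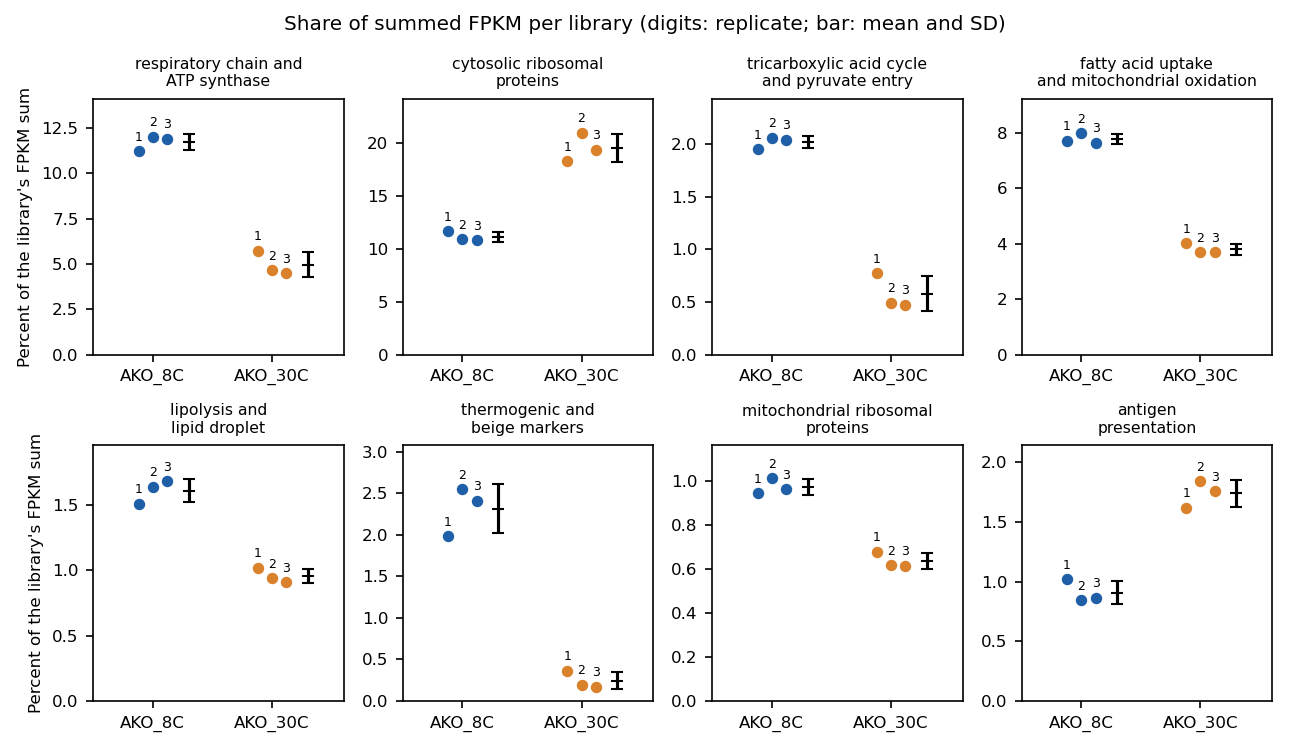
Percent of each library's summed FPKM taken by the tested genes of 8 lists, with AKO_8C at the left and AKO_30C at the right of each panel, digits for the replicate, and the mean and SD (n = 3) beside the points. The respiratory chain holds 11.2% to 12% in AKO_8C and 4.50% to 5.73% in AKO_30C, and cytosolic ribosomal proteins hold 10.8% to 11.7% in AKO_8C and 18.3% to 21.0% in AKO_30C.

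The machinery that builds mitochondria rose with the respiratory chain. Of 77 mitochondrial ribosomal protein genes 71 rose and 0 fell (median 0.80), with Mrps36 the largest at 2.13. Of 32 genes of protein import and mitochondrial chaperones 30 rose and 1 fell (median 1.28). Timm10, a chaperone of the intermembrane space, was at 151, 165 and 168 FPKM in AKO_8C, against 31.3, 29.2 and 26.9 FPKM in AKO_30C (2.43, SE 0.10). Hspa9, the mitochondrial Hsp70 that pulls proteins through the inner membrane, rose by 2.18, and Tomm34, a cytosolic cochaperone of import, fell by 0.93. Coenzyme Q synthesis, which makes the lipid electron carrier between the complexes, had 9 of 12 genes higher and 0 lower (median 1.37), Pdss1 by 2.14 and Coq7 by 1.94. Of 15 genes of mitochondrial fusion, fission and turnover 8 rose and 0 fell, among them the fusion proteins Opa1 by 1.51 and Mfn2 by 1.39. Of 39 tested solute carriers of the Slc25 family (47 listed) 25 rose and 7 fell (median 0.72). Slc25a20, which carries acylcarnitine, was at 411, 489 and 514 FPKM in AKO_8C, against 64.4, 42.0 and 45.7 FPKM in AKO_30C (3.21, SE 0.17). Slc25a5, an ADP/ATP carrier, rose by 1.78. Tfam, which packages mitochondrial DNA, rose by 0.57.

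Genes that feed the chain with fuel rose in nearly all lists. In the tricarboxylic acid cycle and pyruvate entry 25 of 26 genes rose and 0 fell, with a median of 2.16. Pdk4, the kinase that switches off pyruvate dehydrogenase, was at 745, 844 and 985 FPKM in AKO_8C, against 147, 58.0 and 45.8 FPKM in AKO_30C (3.52, SE 0.37). Idh3a, a subunit of isocitrate dehydrogenase, was at 532, 598 and 644 FPKM in AKO_8C, against 108, 53.4 and 64.3 FPKM in AKO_30C (3.02, SE 0.23). The mitochondrial pyruvate carrier subunit Mpc2 rose by 2.75 and Cs, citrate synthase, by 2.29, so that a kinase that closes pyruvate entry and the carrier that opens it were both higher. The 1 gene of the list that was not called differed by -0.02. AKO_30C replicate 1 was the highest of its group for 26 of these 26 genes.

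All 26 genes of fatty acid uptake and mitochondrial oxidation rose (median 1.83). Cpt1b, the rate-controlling enzyme of entry, was at 268, 374 and 358 FPKM in AKO_8C, against 50.7, 18.9 and 20.4 FPKM in AKO_30C (3.56, SE 0.34). Acadvl, which oxidises very long chains, rose by 2.51, Hadha, a subunit of the trifunctional protein, by 2.69, and Acadm, for medium chains, by 2.05. Cd36, the uptake receptor, rose by 1.24. In peroxisomes 22 of 25 genes rose and 0 fell (median 1.25). Ehhadh, the bifunctional enzyme of peroxisomal oxidation, was at 229, 312 and 481 FPKM in AKO_8C, against 30.2, 25.4 and 15 FPKM in AKO_30C (3.79, SE 0.31). Its level spread more among the cold libraries than that of the mitochondrial enzymes. Acaa1b, a thiolase, rose by 3.22, but its near-identical copy Acaa1a can exchange reads with it, so the split between them is uncertain. Branched-chain amino acid catabolism had 17 of 19 genes higher and 0 lower (median 0.87), with Dbt, a subunit of the branched-chain dehydrogenase, up by 1.75 and Bckdhb by 1.55.

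Most transcripts on the lists of lipid synthesis and of lipolysis and lipid droplets were higher at 8 °C. Of 18 tested genes of lipogenesis and elongation (21 listed) 13 rose and 2 fell (median 1.28). Fasn, fatty acid synthase, was at 2565, 1589.6 and 1341 FPKM in AKO_8C, against 770.4, 453 and 309.7 FPKM in AKO_30C (1.88, SE 0.34, adjusted p = 0.0028). Me1, malic enzyme, which supplies NADPH, was at 1314, 547 and 528 FPKM in AKO_8C, against 198, 106 and 78.0 FPKM in AKO_30C (2.61, SE 0.42). Acly, ATP citrate lyase, was at 932, 414 and 368 FPKM in AKO_8C, against 200.4, 98.7 and 59.5 FPKM in AKO_30C (2.29, SE 0.47). In these 3 genes replicate 1 was the highest of each group, and it was the highest for 12 of the 18 genes in AKO_8C and 13 of 18 in AKO_30C. Srebf1, the transcription factor of lipogenesis, went the other way and fell by 0.71 (95.4, 73.6 and 64.6 FPKM in AKO_8C, against 129, 145 and 108 FPKM in AKO_30C). Scd1, the main stearoyl-CoA desaturase of adipose tissue, was left out of the test because it was listed at 0 in all 3 AKO_8C libraries and at 3683, 1774 and 1963 FPKM in AKO_30C. A value of 0 for so abundant a gene can be a failed estimate, and no change is read from it.

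In triglyceride synthesis 11 of 13 tested genes (14 listed) rose and 1 fell (median 1.07), with Agpat2, an acyltransferase, at 1117, 1234 and 1078 FPKM in AKO_8C, against 224, 167 and 165 FPKM in AKO_30C (2.63, SE 0.14), and Gpam, the entry enzyme, up by 1.93. In lipolysis and lipid droplet genes 16 of 19 tested (20 listed) rose and 1 fell (median 1.12). Plin2, a droplet coat protein, was at 1044, 1145 and 970.0 FPKM in AKO_8C, against 214, 165 and 107 FPKM in AKO_30C (2.75, SE 0.23), and Plin5, which tethers droplets to mitochondria, rose by 2.42. Of the lipases, Pnpla2 (ATGL) and Lipe (hormone-sensitive lipase) changed less, by 1.03 and 0.36. Mgll, monoglyceride lipase, also rose and was among the 6 called members of the list with the largest change. The Lipe call was lost under each of the 3 other scalings (adjusted p of 0.058 to 0.49), in the fit of all 12 libraries (0.053) and without any one AKO_8C library or AKO_30C replicate 3 (0.052 to 0.089). Fitm1, a droplet protein of muscle, fell by 2.62, together with the skeletal muscle genes.

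Cholesterol synthesis was mixed, with 12 of 20 genes higher and 3 lower (median 0.66). Hmgcs1, which makes HMG-CoA, was at 77.2, 71.8 and 73.5 FPKM in AKO_8C, against 24.0, 13.7 and 17.8 FPKM in AKO_30C (1.98, SE 0.18). Insig1, a sterol sensor and itself a target of SREBP, rose by 1.97. Srebf2 fell by 0.47 and Fdft1, squalene synthase, by 0.45. The Fdft1 call was lost without AKO_8C replicate 1 or 2 or AKO_30C replicate 1 or 2 (adjusted p of 0.053 to 0.081).

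The promoter window of Hmgcs1 holds the letters of a sterol regulatory element, searched as TCACNCCAC on both strands. It is shown because Hmgcs1 was the only gene, among the 13 of the list with a window, that held them. Hmgcs1 also had the largest change in the list. The match of letters is not a measured binding site. Of 32851 windows 408 (1.24%) held these letters, and only 65.0% of the list had a window, so no share is read from the list. The line gives chr13:119690178-119690258 of GRCm38.p6, plus strand, from RefSeq, with the element at positions -137 to -129 in capitals.
Hmgcs1: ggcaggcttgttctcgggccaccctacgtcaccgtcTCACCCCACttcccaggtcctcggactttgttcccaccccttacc

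For glucose, 22 of 26 tested genes (27 listed) of uptake, glycogen and glycolysis rose and 2 fell (median 1.25). Pgam1, a phosphoglycerate mutase, was at 554, 606 and 599 FPKM in AKO_8C, against 133, 92.0 and 94.2 FPKM in AKO_30C (2.47, SE 0.15). Pfkl, the liver phosphofructokinase, rose by 2.14, Ldhb, a lactate dehydrogenase, by 2.51, Hk2, hexokinase 2, by 1.09, and Slc2a4, the insulin-regulated glucose transporter, by 1.09. The ratio of Ldhb to Ldha was 0.266, 0.404 and 0.403 in AKO_8C, against 0.151, 0.115 and 0.112 in AKO_30C. The 2 that fell were Eno3 (-2.30) and Pfkm (-0.59), the isoforms of skeletal muscle. The Pfkm call was lost without AKO_8C replicate 1 or 3 or AKO_30C replicate 3 (adjusted p of 0.053 to 0.081), in the fit of all 12 libraries (0.0501) and with the replicate block (0.063). For glycogen, Gys2 rose by 3.87 and the phosphorylase Pygl by 1.67, so genes of storage and release were both higher.

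Heat can also be made by cycles that spend ATP without UCP1. Of 7 tested genes of the creatine cycle (8 listed) 2 rose and 4 fell. Ckb, the brain-type creatine kinase linked to the creatine cycle of brown fat, was at 198, 223 and 241 FPKM in AKO_8C, against 30.4, 33.7 and 32.2 FPKM in AKO_30C (2.74, SE 0.10). Alpl, an alkaline phosphatase linked to the hydrolysis of phosphocreatine, was at 10.6, 17.6 and 14.6 FPKM in AKO_8C, against 3.12, 2.47 and 1.92 FPKM in AKO_30C (2.11, SE 0.20). The 4 that fell were the muscle kinases Ckm, by 3.00 on the log2 scale, and Ckmt2, by 2.50, and both enzymes of creatine synthesis. Gatm, which makes its precursor guanidinoacetate, was at 4.52, 3.76 and 3.78 FPKM in AKO_8C, against 9.13, 7.34 and 10.5 FPKM in AKO_30C (-0.98, SE 0.15, adjusted p = 0.0010). Gamt, which methylates guanidinoacetate to creatine, fell by 0.72 (SE 0.19, adjusted p = 0.014), which was also the median of the list. For calcium cycling, 3 of 11 tested genes (16 listed) rose and 4 fell, against 26.4% and 22.0% of all genes. Atp2a2, the calcium pump SERCA2, was at 92.1, 104 and 108 FPKM in AKO_8C, against 37.0, 29.7 and 36.9 FPKM in AKO_30C (1.53, SE 0.12). Atp2a1, the pump of fast muscle, fell by 2.67, so that Atp2a2 over Atp2a1 was 1.36, 1.21 and 3.07 in AKO_8C, against 0.118, 0.0937 and 0.0671 in AKO_30C. Skeletal muscle transcripts also fell in these libraries, as described below. Their part in the falls of Atp2a1, Ckm and Ckmt2, and so in this ratio, was not tested.

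Secreted factors moved in both directions, with 12 of 21 tested genes (24 listed) higher and 4 lower. Bmp8b, a signal of thermogenic fat whose reads could be shared with its close copy Bmp8a, was at 3.47, 4.88 and 3.40 FPKM in AKO_8C and was listed at 0 in the 3 AKO_30C libraries. Gdf15, a stress hormone, was at 8.34, 14.4 and 4.76 FPKM in AKO_8C, against 0.445, 1.62 and 0.584 FPKM in AKO_30C (2.37, SE 0.36). Nrg4, a batokine, rose by 0.57, a call lost under equal sum scaling (adjusted p = 0.091), and Vegfa, the vascular growth factor, by 0.90. Lep, leptin, which signals fat stores, was at 10.1, 13.7 and 13.7 FPKM in AKO_8C, against 68.1, 41.1 and 109 FPKM in AKO_30C (-2.35, SE 0.31, adjusted p = 0.00057). Adipoq, adiponectin, was at 1259, 1032 and 1215 FPKM in AKO_8C, against 1343, 1489.9 and 1508 FPKM in AKO_30C, which did not overlap but missed the threshold (-0.31, adjusted p = 0.056). It was called lower under median ratio, upper quartile and equal sum scaling (-0.35, -0.43 and -0.58, adjusted p of 0.046, 0.019 and 0.0028), with a filter at 5 FPKM (adjusted p = 0.044), with robust variance (0.047) and without AKO_30C replicate 1 (0.038), and adjusted p was 0.056 to 0.19 under the other alternatives. Nnat, neuronatin, a small membrane protein of adipocytes and neurons (chromosome 2, 157560078 to 157562522, plus strand, GRCm38), fell furthest of all called genes, small RNAs left aside. It was at 40.4, 119.5 and 153 FPKM in AKO_8C, against 1355, 1567 and 1986 FPKM in AKO_30C (-4.14, SE 0.43, adjusted p = 0.0002).

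Genes of the unfolded protein response moved in both directions. Of 35 tested targets of spliced XBP1 and genes of ER-associated degradation (36 listed) 9 rose and 7 fell, and the median of 0.05 turned negative under upper quartile and equal sum scaling and without AKO_30C replicate 2. The share called was 48.4% of all genes, and the list's counts stand near it. Dnajb9, an ER cochaperone that is a strong target of XBP1s, was at 74.6, 61.0 and 84.4 FPKM in AKO_8C, against 18.7, 12.7 and 16.7 FPKM in AKO_30C (2.13, SE 0.17, adjusted p = 6.2e-05). Derl1 rose by 0.85 and Herpud1 by 0.64, both parts of the degradation machinery. Edem2, which trims the sugars of misfolded proteins, fell by 0.53, and Pdia4, a disulfide isomerase, fell by 0.50. Sec61a1, the translocon channel, was at 41.7, 43.0 and 51.1 FPKM in AKO_8C, against 41.3, 42.3 and 46.8 FPKM in AKO_30C (0.05, adjusted p = 0.71), and its sign turned under upper quartile and equal sum scaling and without AKO_8C replicate 3. Of 15 targets of ATF6 and chaperones 4 rose and 3 fell, against 26.4% and 22.0% of all genes. Hspa5, the main ER chaperone BiP, was at 199, 204 and 199.9 FPKM in AKO_8C, against 124, 105 and 109 FPKM in AKO_30C (0.84, SE 0.10, adjusted p = 0.0003). Of 11 transcripts reported to be cut by IRE1 2 rose and 2 fell, against the same shares of all genes. Rtn4 rose by 1.12 and Tapbp, a chaperone of antigen loading, fell by 0.68, beside the other antigen presentation genes. Bloc1s1, the transcript most used to read this activity, was at 179, 196 and 197 FPKM in AKO_8C, against 149, 176 and 173 FPKM in AKO_30C (0.20, adjusted p = 0.13, and -0.06 under equal sum scaling).

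The branch read through ATF4, the transcription factor translated when eIF2 alpha is phosphorylated, moved mostly upwards. Of 31 listed genes 28 were tested, 17 rose and 3 fell, with a median of 0.91. Atf4 itself was at 189.8, 216 and 189 FPKM in AKO_8C, against 93.2, 99.3 and 90.1 FPKM in AKO_30C (1.07, SE 0.10). Atf5, its relative of the mitochondrial stress response, was at 437, 538 and 498 FPKM in AKO_8C, against 83.2, 64.9 and 89.9 FPKM in AKO_30C (2.62, SE 0.14). Trib3, a pseudokinase and ATF4 target, was at 22.9, 34.2 and 19.1 FPKM in AKO_8C, against 2.76, 1.14 and 5.01 FPKM in AKO_30C (2.82, SE 0.36). Ddit3, which encodes CHOP, was at 59.1, 51.1 and 35.4 FPKM in AKO_8C, against 25.2, 27.7 and 26.9 FPKM in AKO_30C (0.81, SE 0.17, adjusted p = 0.006). Targets in amino acid metabolism went both ways. Asns, asparagine synthetase, rose by 1.89 and Cth, which makes cysteine, by 2.16, whereas Phgdh, the entry enzyme of serine synthesis, fell by 0.69. Stc2, a secreted glycoprotein, fell by 1.04.

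ATF4 binds sites that pair a C/EBP and an ATF core, searched here as TGATGNAA on both strands. Of 26 tested genes of the list with a promoter window 5 held the letters, namely Atf3, Trib3, Chac1, Asns and Vldlr. Among all windows, 1304 of 32851 (3.97%) held them. The first count is of genes and the second of windows. The list also includes known ATF4 targets, so no share is read from it. All 5 genes were called higher, Vldlr, the very low density lipoprotein receptor, by 2.65, Atf3, a stress transcription factor, by 1.95, and Chac1, which breaks down glutathione, by 1.14. The match in Trib3 lies after the RefSeq start of its window and is not shown. The other 4 are shown because they carry the element, in capitals, before the RefSeq start of the window. Its positions from that start are -110 to -103 for Atf3, -193 to -186 for Chac1, -23 to -16 for Asns and -200 to -193 for Vldlr. The elements of Atf3, Asns and Vldlr lie inside the spans that GENCODE gives these genes. For Atf3, Chac1 and Vldlr the match is on the opposite strand, so the capitals read as its reverse complement. The lines run 5′ to 3′ along each gene and come from RefSeq, GRCm38.p6, at chr1:191183400-191183479 (minus) for Atf3, chr2:119351013-119351092 (plus) for Chac1, chr6:7693210-7693268 (minus) for Asns and chr19:27216784-27216863 (plus) for Vldlr.
Atf3: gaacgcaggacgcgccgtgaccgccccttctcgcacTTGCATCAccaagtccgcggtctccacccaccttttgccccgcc
Chac1: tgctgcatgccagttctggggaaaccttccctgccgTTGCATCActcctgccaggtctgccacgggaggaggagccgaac
Asns: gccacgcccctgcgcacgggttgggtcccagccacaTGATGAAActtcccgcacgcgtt
Vldlr: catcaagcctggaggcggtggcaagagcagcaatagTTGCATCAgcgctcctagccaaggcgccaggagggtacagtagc
The 3 opposite-strand matches share the same 8 letters. Which factor occupies these sites was not measured.

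Most other protein quality genes rose. Of 32 genes of the proteasome list 26 rose and 0 fell (median 0.70), with Psmb5, a catalytic subunit, at 389, 384 and 429.6 FPKM in AKO_8C, against 154, 138 and 146 FPKM in AKO_30C (1.45, SE 0.09). Nfe2l1, the transcription factor that raises proteasome genes in cold brown fat, rose by 0.79. Of 16 cytosolic heat shock genes 13 rose and 2 fell (median 0.74). Hspa1a and Hspa1b, near-identical copies of Hsp70 that can exchange reads, rose by 1.89 and 1.98, and AKO_8C replicate 2 was the highest, at 30.1 FPKM for Hspa1a against 10.5 and 7.72 FPKM in replicates 1 and 3. Among 24 tested antioxidant genes (25 listed) 17 rose and 2 fell (median 0.69). Sod2, the mitochondrial superoxide dismutase, rose by 2.19 and Srxn1, which reactivates peroxiredoxins, by 2.48, while Gpx3, a secreted peroxidase, was at 523, 447 and 605 FPKM in AKO_8C, against 1536, 1332 and 1543 FPKM in AKO_30C, and fell by 1.49.

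**Figure D3:**
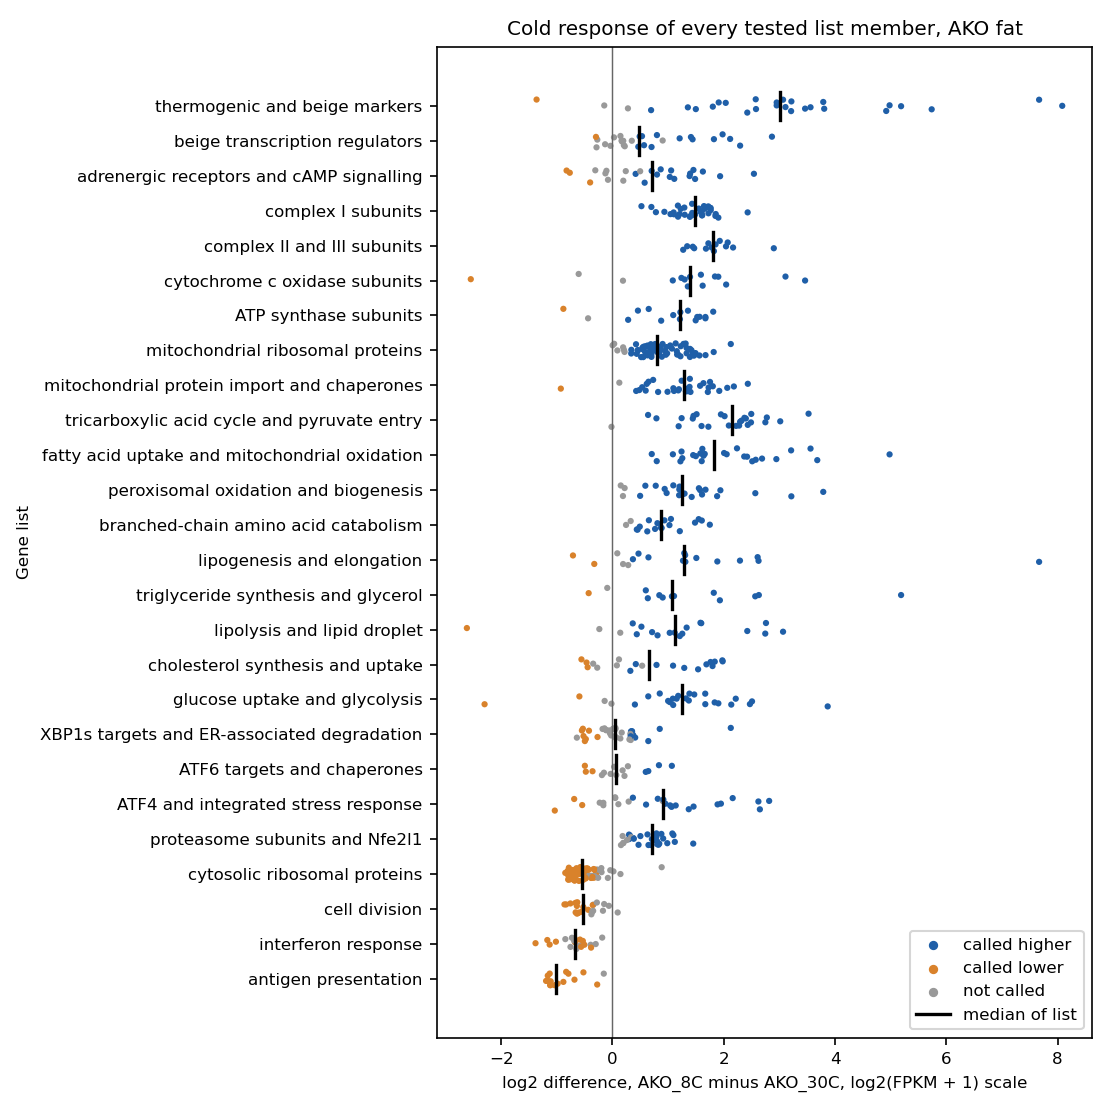
Log2 difference, AKO_8C minus AKO_30C on the log2(FPKM + 1) scale, of every tested member of 26 gene lists, coloured by whether it was called higher, lower or not called, with a black bar at each list's median. The medians of the thermogenic, respiratory and fuel lists lie to the right of 0, the XBP1s and ATF6 lists straddle 0, and the medians of the cytosolic ribosomal, cell division, interferon and antigen presentation lists lie to the left.

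Transcripts of cytosolic ribosomes were lower at 8 °C. Of 76 ribosomal protein genes 63 were called lower and 0 higher, with a median of -0.55. Of those not called, 3 had a positive difference, up to 0.88. The 76 genes took 11.7%, 10.9% and 10.8% of the summed FPKM in AKO_8C, against 18.3%, 21.0% and 19.4% in AKO_30C. The cytosolic and the mitochondrial ribosome thus moved in opposite directions, and the sign of both medians held under every scaling tried. Rplp2, of the ribosomal stalk, was at 2906, 2762 and 2926 FPKM in AKO_8C, against 4571, 5376 and 4977 FPKM in AKO_30C (-0.79, SE 0.11). Rps24 had the largest fall of the list, at -0.85 (SE 0.11), and Rps21 fell by 0.77. Many ribosomal protein genes have near-identical processed copies in the genome, among them Rps27rt, which fell by 0.80 and whose reads can be shared with Rps27, so single genes of this list are uncertain. The other large losses in plain FPKM were Tmsb4x, thymosin beta 4, which binds actin, at -0.90, Apoe, apolipoprotein E, at -0.65, and Ifi27l2a, an interferon-induced gene, at -0.86. The calls of Apoe and Ifi27l2a were lost with no filter on low values (adjusted p of 0.059 and 0.071). With 1 library left out, the Ifi27l2a call held only when that library was AKO_30C replicate 1, and the adjusted p was 0.050 to 0.096 otherwise. Of 23 tested genes of cell division (25 listed) 14 fell and 0 rose (median -0.52). AKO_8C replicate 1 was the highest of its group for 21 of these 23 genes and for 51 of the 76 ribosomal protein genes. Lymphocyte markers also fell, as described below, and their part in these falls was not tested. Mcm6, a replicative helicase subunit, was at 11.8, 6.10 and 8.49 FPKM in AKO_8C, against 16.6, 15.9 and 16.3 FPKM in AKO_30C (-0.86, SE 0.20).

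Skeletal muscle genes had the steepest falls. Among the 15 called genes with the largest decrease and no overlap, small RNAs and predicted genes left aside, all but Nnat and Prtn3, a protease of neutrophil granules, are genes of muscle contraction and its energy supply. Acta1, skeletal alpha actin (chromosome 8, 123891769 to 123894751, minus strand, GRCm38), was at 104, 176 and 69.2 FPKM in AKO_8C, against 735, 858 and 1495 FPKM in AKO_30C (-3.17, SE 0.36). Casq1, the calcium-binding calsequestrin of muscle, was at 4.65, 7.14 and 2.64 FPKM in AKO_8C, against 51.4, 60.2 and 78.6 FPKM in AKO_30C (-3.53, SE 0.28). Of 15 muscle markers 14 fell and 0 rose (median -2.70). Their summed FPKM was 782.7, 1146 and 452.3 in AKO_8C, against 3803, 5073 and 7332 in AKO_30C, and AKO_30C replicate 3 was the highest of its group for all 15. None of the 15 was at 0 in all 6 libraries, and muscle RNA was measured in every library. Prtn3 was at 2.62, 4.00 and 3.78 FPKM in AKO_8C, against 21.3, 48.1 and 33.3 FPKM in AKO_30C (-2.92, SE 0.27).

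Genes of lymphocytes and of antigen presentation were lower as well. Of 14 tested T cell markers (15 listed) 13 fell and 0 rose (median -1.19), and of 12 B cell markers 11 fell and 0 rose (median -1.27). Cd3e, of the T cell receptor complex, was at 13.1, 16.6 and 22.1 FPKM in AKO_8C, against 49.6, 40.7 and 44.2 FPKM in AKO_30C (-1.35, SE 0.18). The summed T cell markers were 221.1, 287.1 and 290.4 FPKM in AKO_8C, against 646.2, 636.4 and 566.0 FPKM in AKO_30C. For B cells the sums were 706.2, 294.5 and 380.9 FPKM in AKO_8C, against 908.6, 1243 and 1118 FPKM in AKO_30C, and AKO_8C replicate 1 was the highest of its group for 12 of 12 B cell markers. Of 16 antigen presentation genes 15 fell and 0 rose (median -1.01). Cd74, the invariant chain of class II, was at 1386, 814 and 923 FPKM in AKO_8C, against 1914, 2542 and 2237 FPKM in AKO_30C (-1.13, SE 0.21). Psmb9, of the immunoproteasome, fell by 1.19 whereas its counterparts of the standard proteasome rose. Lymphocyte markers moved with these genes, and their part in the fall was not tested. Of 21 tested interferon response genes (22 listed) 11 fell and 0 rose (median -0.67), with Bst2, tetherin, at 71.5, 106 and 81.6 FPKM in AKO_8C, against 160.4, 161 and 202 FPKM in AKO_30C (-1.02, SE 0.16). Ifit3 and Oas2 also fell, by 1.38 and 1.13, although AKO_8C replicate 2 lay within the warm range for each. Neither call held without AKO_8C replicate 1 or 3 or AKO_30C replicate 1 or 3, when the adjusted p was 0.066 to 0.095 for Ifit3 and 0.059 to 0.13 for Oas2. Both calls were also lost with no filter, robust variance or the replicate block (0.051 to 0.077 for Ifit3, 0.064 to 0.097 for Oas2).

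Inflammatory cytokines and chemokines moved in both directions. Of 20 tested genes (26 listed) 7 rose and 2 fell, near the 48.4% of all genes called. Ccl7, a monocyte chemokine, was at 113, 19.6 and 62.5 FPKM in AKO_8C, against 2.90, 1.29 and 5.76 FPKM in AKO_30C (3.76, SE 0.61). Ccl2, its close relative, was at 81.3, 13.2 and 43.6 FPKM in AKO_8C, against 3.67, 3.44 and 5.44 FPKM in AKO_30C (2.87, SE 0.54). Ptx3, a pentraxin of innate immunity, was at 31.2, 3.62 and 38 FPKM in AKO_8C, against 0.731, 0.937 and 0.301 FPKM in AKO_30C (3.46, SE 0.71). In all 3 genes AKO_8C replicate 2 was the lowest of the cold libraries and still above every warm library. Ccl5, a chemokine made by T cells, fell by 1.46 (120.2, 173 and 184 FPKM in AKO_8C, against 463, 426 and 408 FPKM in AKO_30C). Among macrophage markers 1 of 16 rose and 4 fell, against 26.4% and 22.0% of all genes, and their sums were 778.6, 863.8 and 626.5 FPKM in AKO_8C, against 930.7, 1031 and 1422 FPKM in AKO_30C. Neutrophil and mast cell markers had 1 of 9 tested genes (10 listed) higher, S100a8 by 1.92 (adjusted p = 0.038), and 1 lower, Mmp9, which fell by 1.01 (adjusted p = 0.029). The groups overlapped for both genes. The S100a8 call was lost without AKO_8C replicate 1 or 3 or AKO_30C replicate 1 or 2 (adjusted p of 0.076 to 0.12), and the Mmp9 call without AKO_8C replicate 1 or 3 or AKO_30C replicate 2 or 3 (0.079 to 0.095). With no filter both calls were lost (0.078 for S100a8 and 0.062 for Mmp9), and that of S100a8 also with robust variance (0.063) and equal sum scaling (0.055).

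Immediate early genes, which respond to signals within minutes, had 13 of 19 tested members (20 listed) higher and 1 lower (median 1.01). Egr1 was at 61.2, 157 and 84.1 FPKM in AKO_8C, against 21.8, 14.5 and 28.3 FPKM in AKO_30C (2.11, SE 0.35), and Fosb rose by 2.60. Fos, the best known member, was at 15.3, 42.7 and 19.2 FPKM in AKO_8C, against 13.6, 4.99 and 18.9 FPKM in AKO_30C, and was not called (1.01, adjusted p = 0.12), although it passed without AKO_30C replicate 3 (1.38, adjusted p = 0.049). The calls of Egr1 and Fosb were lost in the fit of all 12 libraries (adjusted p = 0.077 and 0.051). For Egr1, Fosb and Fos, AKO_8C replicate 2 was the highest. Of 17 tested clock genes (18 listed) 2 rose and 2 fell, against 26.4% and 22.0% of all genes. Dbp, a clock output factor, was at 44.9, 43.7 and 22.3 FPKM in AKO_8C, against 88.0, 96.5 and 78.8 FPKM in AKO_30C (-1.28, SE 0.25). Of 15 genes of insulin signalling 6 rose and 1 fell, near the 48.4% of all genes called. The receptor substrate Irs2 was up by 1.46 and the receptor Insr by 0.85.

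The matrix and vessel lists held genes that rose and genes that fell. Of 27 collagen and matrix genes 5 rose and 5 fell, against 26.4% and 22.0% of all genes. Col3a1, a fibrillar collagen, was at 69.7, 176 and 70.0 FPKM in AKO_8C, against 249.9, 240.3 and 382 FPKM in AKO_30C (-1.57, SE 0.35), whereas Thbs1, thrombospondin 1, was at 51.2, 18.4 and 87.3 FPKM in AKO_8C, against 5.02, 4.50 and 2.03 FPKM in AKO_30C (3.27, SE 0.51). For both genes AKO_8C replicate 2 was the cold library nearest to the warm ones. Of 18 angiogenic genes 9 rose and 2 fell. Flt1, a VEGF receptor, rose by 1.13, Fgf1 by 1.14 and Adamts1, a matrix protease, by 1.68, and Pgf, placental growth factor, fell by 0.86. Among endothelial markers 6 of 12 rose and 0 fell, and among those of smooth muscle and pericytes 6 of 9 rose and 0 fell (median 0.59).

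The adipocyte identity of the tissue was checked with 16 markers, of which 11 rose and 1, Lep, fell (median 0.48). Their summed FPKM was 65270, 60890 and 65050 in AKO_8C, against 38560, 45320 and 46320 in AKO_30C, so adipocyte transcripts were abundant in all 6 libraries. Fabp4 alone held 39743, 38126 and 38024 FPKM of the sums in AKO_8C, against 17971, 18303 and 18306 FPKM in AKO_30C. Its group means differed by 20438 FPKM, so the sums by themselves do not show a general gain of adipocyte transcripts. Fibroblast and progenitor markers had 5 of 13 lower and 0 higher (median -0.45). Schwann cell and nerve markers had 6 of 7 tested genes (10 listed) lower. The member that rose, S100b by 2.04, is also a beige adipocyte gene and is on that list too. Epithelial markers reached the filter for 5 of 14 genes, and Krt5 was at 0 in all 6 libraries. Erythrocyte markers had 3 of 5 tested genes (8 listed) higher and 0 lower, and the near-identical globin copies among them can share reads. Whether the shares of these cell types in the pads set the changes described above was not tested.

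**Figure D4:**
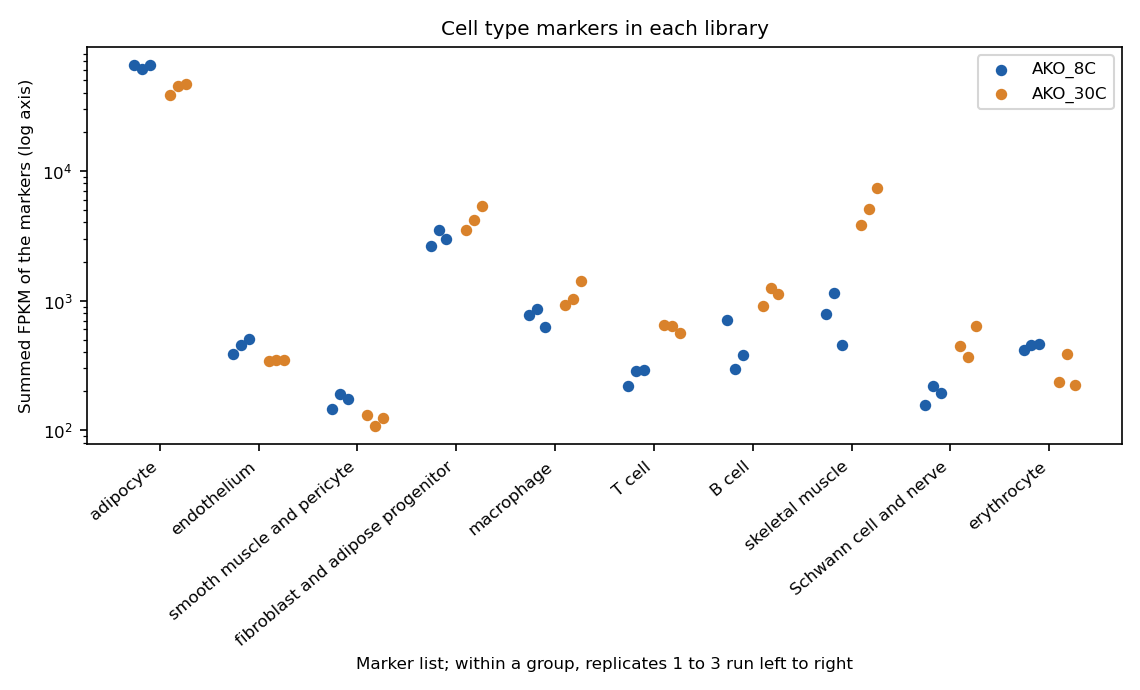
Summed FPKM of 10 cell type marker lists in each library on a log axis, with AKO_8C at the left and AKO_30C at the right of each list and replicates 1 to 3 running left to right. Skeletal muscle sums are 452.3 to 1146 in AKO_8C and 3803 to 7332 in AKO_30C, and T cell sums are 221.1 to 290.4 in AKO_8C and 566.0 to 646.2 in AKO_30C.

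Where the AKO response differed from that of WT fat was tested with all 12 libraries in one limma fit, as the AKO cold difference minus the WT cold difference. Of 13215 genes tested 15 (0.114%) passed the adjusted p of 0.05, 8 with a positive difference (0.0605%) and 7 with a negative one (0.0530%), and 1965 had an unadjusted p under 0.05. In the same fit 6479 genes (49.0%) were called for the WT cold response, 3211 (24.3%) higher and 3268 (24.7%) lower. The count depended on single libraries: it was 0 without AKO_8C replicate 1 or 3, AKO_30C replicate 3, or WT_30C replicate 1 or 3, 1 without AKO_30C replicate 2 or WT_30C replicate 2, 2 without AKO_30C replicate 1, and 9 without AKO_8C replicate 2. Acot2, a mitochondrial thioesterase of long-chain acyl-CoA, was at 172, 154 and 174 FPKM in AKO_8C and 14.3, 10.2 and 12 FPKM in AKO_30C, against 44.7, 61.4 and 67.5 FPKM in WT_8C and 12.3, 12.6 and 12.6 FPKM in WT_30C (difference of responses 1.58, SE 0.21, adjusted p = 0.027). The warm groups stood together and the cold groups apart. Reads of Acot2 could be shared with close family members, so the level of this single gene is uncertain. Perm1 rose by 2.87 in AKO, against 1.66 in WT (difference 1.20, SE 0.19, adjusted p = 0.034), and Hcn2, a pacemaker channel, by 3.43 in AKO, against 2.11 in WT (difference 1.32, SE 0.20, adjusted p = 0.034). Kng1, a kininogen, was at 2.41, 2.23 and 2.28 FPKM in AKO_8C and at 0.282, 0.024 and 0 FPKM in AKO_30C, against 0, 0 and 0.0644 FPKM in WT_8C, and it was listed at 0 in the 3 WT_30C libraries.

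Lep had the opposite sign in the genotypes. It fell by 2.35 in AKO, and in WT it was at 88.9, 68.8 and 49.8 FPKM in WT_8C, against 39.8, 43.3 and 27.3 FPKM in WT_30C (0.88, difference of responses -3.23, SE 0.44, adjusted p = 0.027). The macrophage genes Marco, a scavenger receptor, and Cd5l, a survival factor of macrophages, and the chemokine Ccl8 rose in WT (by 2.63, 2.36 and 2.38, adjusted p of at most 7.5e-05) while in AKO Marco fell by 0.88 and Cd5l and Ccl8 were not called. Marco was at 9.28, 6.78 and 10.0 FPKM in AKO_8C and 21.2, 16.0 and 13.5 FPKM in AKO_30C, against 26.5, 32.9 and 52.6 FPKM in WT_8C and 2.43, 8.34 and 5.60 FPKM in WT_30C (difference -3.51, SE 0.47, adjusted p = 0.027). The warm AKO libraries already lay above the warm WT libraries for this gene, and the order was turned round in the cold. Saa3, an acute phase protein, was at 0.251, 0.766 and 0.753 FPKM in AKO_8C and 1.42, 0.420 and 0.576 FPKM in AKO_30C, against 10.0, 11 and 42.6 FPKM in WT_8C and 0.665, 0 and 0.202 FPKM in WT_30C (difference -3.99, SE 0.61, adjusted p = 0.034).

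The central thermogenic genes did not pass this test. Ucp1 rose by 8.08 in AKO, against 7.69 in WT, a difference of 0.39 with a 95% interval of -1.37 to 2.15 (adjusted p = 0.85), and Cidea by 3.07 in AKO, against 2.35 in WT (difference 0.71, interval -0.38 to 1.81). For Ppargc1a the values were 2.29 in AKO and 1.39 in WT, a difference of 0.90 with an interval of 0.28 to 1.53 (adjusted p = 0.20), and for Dio2 4.92 in AKO and 3.77 in WT, a difference of 1.15 with an interval of 0.48 to 1.81 (adjusted p = 0.16). The intervals of Ppargc1a and Dio2 lie above 0 before the adjustment for the number of genes. Fgf21 came close to the threshold, with 4.93 in AKO and 2.25 in WT (difference 2.68, SE 0.45, adjusted p = 0.054). Its cold level was 35, 44.0 and 17.9 FPKM in AKO_8C, against 4.33, 2.31 and 6.75 FPKM in WT_8C, which did not overlap. Of the 28 thermogenic genes 0 were called for a difference of responses, with list medians of 3.01 in AKO and 2.31 in WT, and a p that misses the threshold does not show that the genotypes responded alike.

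**Figure D5:**
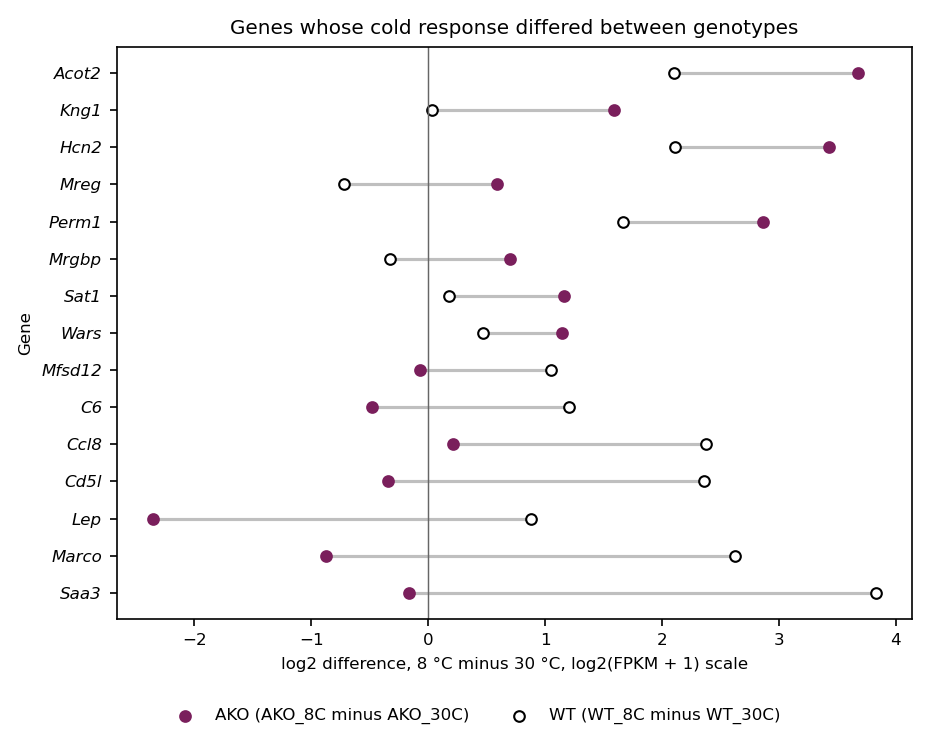
Cold response, 8 °C minus 30 °C on the log2(FPKM + 1) scale, of the 15 genes called for a difference of responses, with filled points for AKO and open points for WT joined by a line. Acot2 lies at 3.68 in AKO and 2.10 in WT, and Lep lies at -2.35 in AKO and 0.88 in WT.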

How the data were processed

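RNA-seq of inguinal fat gave 1 FPKM value per gene and library in the deposited table, which the authors made with bcl2fastq, FastQC 0.11.3, TopHat2 2.0.14 and Cufflinks 2.2.1 on build mm10, per the submitters' processing notes. The annotation and options are not given in the sources used here. The values are not counts, so depth is unknown, no counting interval can be given, and precision rests on 3 mice a group. Groups came from the sample labels. Genes at 1 FPKM or more in at least 3 libraries were fitted as log2(FPKM + 1) with limma 3.58.1 in R 4.3.3 (moderated test with a variance trend, two-sided, Benjamini-Hochberg over all genes, threshold 0.05), and lists and figures were made with Python 3.11.15. The difference of responses used all 12 libraries. Genes listed at 0 in some libraries and above 1000 FPKM in others were left out, a rule widened to different groups after Scd1 was seen. It removed 1 gene of the AKO comparison and 2 of the 12-library fit. Adjusted p-values are this fit's. The authors' comparison tables, also in FPKM, served only to check the unit: group means of the gene table equalled theirs, within a relative 0.0001, for all 1075 genes at 8 °C and for all 874 that could be matched of 876 at 30 °C. The scripts were tested on simulated data.

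The comparison, members and gene lists were chosen with earlier results of these data known. Named genes were the target, the 15 called genes with the largest log2 difference in each direction with no overlap (small RNAs and predicted genes left out), the 8 largest in FPKM, up to 6 called members of each list, those called for a difference of responses, and 15 fixed genes. A further 35 genes, such as Ntrk3, Atf4, Srebf1 and Nrf1, were named after their values were seen. Gene positions are from GENCODE vM21 and promoter windows from RefSeq. Alternatives were the pseudocount, the filter, the scaling, the variance model, the replicate block and each library left out.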

Additional observations from a re-analysis of the deposited data

Results flagged for a closer look

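The AKO and WT cold responses differed, by limma's test of the difference itself, for 15 genes, with adjusted p between 0.0267 and 0.0444. The value given is the AKO response minus the WT response on the log2(FPKM + 1) scale. It was positive for 8 genes: 1.577 for Acot2, 1.563 for Kng1, 1.322 for Hcn2, 1.313 for Mreg, 1.202 for Perm1, 1.023 for Mrgbp, 0.9773 for Sat1 and 0.6765 for Wars. It was negative for 7 genes: -3.991 for Saa3, -3.506 for Marco, -3.235 for Lep, -2.698 for Cd5l, -2.17 for Ccl8, -1.686 for C6 and -1.124 for Mfsd12. Mreg, a melanosome transport protein, rose by 0.59 in AKO and fell by 0.72 in WT. Wars, a tryptophan tRNA synthetase, rose by 1.15 in AKO, against 0.47 in WT, and Sat1, which acetylates polyamines, by 1.16 in AKO, against 0.18 in WT. C6, of the complement system, differed by -0.48 in AKO, against 1.21 in WT.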

How the results depend on the processing

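With any 1 library left out the AKO cold response had 4909 to 5445 called genes, 2670 to 3199 of them higher and 2111 to 2461 lower, and 4803 to 5215 of the 6196 calls were kept in the same direction. Equal sum scaling moved the split to 2159 higher and 4921 lower. The replicate block gave 5742 calls, of which 5552 were calls without the block. Deviations from the group means had correlations of 0.0304, -0.117 and -0.109 between same-numbered AKO libraries. Between AKO libraries of other numbers they were -0.0923 to 0.185. With 3 libraries in a group, these values cannot show whether the numbers pair the mice. The named genes' values for the AKO cold response were read under each alternative. Of these values, 6158 kept their direction and side of the threshold, 251 lost the call, 7 gained one and 8 changed sign. The sign changes were Sec61a1 (-0.0591 under upper quartile scaling, -0.208 under equal sum scaling, -0.0341 to 0.109 with 1 library left out), Prdm16 (-0.0189 under equal sum scaling, -0.0012 to 0.348 with 1 library left out), Bloc1s1 (-0.0646) under equal sum scaling, and Xbp1 (-0.384 to 0.193 with 1 library left out, 0.0233 without AKO_30C replicate 2), none of which was called. List medians changed sign under at least 1 scaling for calcium cycling, insulin signalling, XBP1s targets, ATF6 targets, clock, neutrophil and mast cell, and epithelium. The difference of responses had 23 calls, 16 of them higher, with the replicate block, 9 (4 higher) under median ratio, 10 (3 higher) under upper quartile and 8 (3 higher) under equal sum scaling. With 1 library left out it had 0 to 15 calls, 0 to 9 higher and 0 to 7 lower, while 1394 to 2418 genes had an unadjusted p under 0.05. For the genes called for a difference of responses, 102 values under the alternatives kept the call and 162 lost it. The cause of these moves was not tested. Values near 1 FPKM carry the least precision, and its size is unknown without depth.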
